A study of Mus musculus with 30 samples.

Results

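The comparison reported here set the lungs of juvenile mice that had inhaled lipopolysaccharide (LPS), the endotoxin of the outer membrane of Gram-negative bacteria, directly against the lungs of juvenile mice that had been mechanically ventilated (MV). The arrays were chosen by their labels alone, and there were 7 of them among the 30 of the series. The 4 LPS mice were 21-day-old C57BL/6 animals that sat in a closed chamber for 30 minutes with an aerosol made from 20 mL of 0.1 mg/mL E. coli LPS, and then breathed unaided for 2 hours with food and water at hand. The 3 MV mice, of the same strain and age, received no LPS and were ventilated for 2 hours at a tidal volume of 15 mL/kg, 80 breaths per minute, 30% oxygen and a positive end-expiratory pressure of 2 cmH2O. Values from 3 juvenile mice given the aerosol and then ventilated (LPS+MV) and from 4 untreated juvenile control mice stand beside them as background, and the same LPS against MV contrast in 16-week-old adults, with 4 mice in each group, all C57BL/6, is used for the comparison of ages. Each array held RNA from the whole lung of 1 animal on the Affymetrix Mouse 430 2.0 array. The groups differed in the endotoxin, in the ventilator, in access to food and water and in the 30 minutes in the chamber before the 2 hours, and these cannot be told apart.

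LPS is recognised in the lung by a complex of CD14, MD-2 and the Toll-like receptor TLR4 on macrophages and epithelial cells. Its adaptor MyD88 leads to the transcription factor NF-kB, which turns on chemokines, cytokines and its own inhibitors, and a separate adaptor leads to type I interferon and the interferon-stimulated genes. Ventilation with large breaths stretches the alveolar wall, and stretch is known to act on immediate early genes, on the YAP and serum response factor pathways and on growth factor signalling. The contrast between both exposures at the same age asks which transcripts are more abundant after the one insult than after the other.

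Values are probe set intensities on a linear scale, as deposited, and differences are LPS minus MV on a log2(intensity + 32) scale with the standard error (SE) of the fit, so that changes of dim probe sets are understated. The p-values come from limma, adjusted over all 13089 genes tested, and 0.05 was the threshold. As markers of whole lung, the surfactant genes Sftpc (18744 to 20706 on LPS arrays and 20202 to 22163 on MV arrays) and Sftpb, the club cell secretoglobin Scgb1a1, the alveolar type 1 receptor Ager and the endothelial Pecam1 were bright on all 7 arrays. The first principal component of the 7 arrays held 70.0% of their variance and separated LPS from MV, and the second, with 12.2%, set MV replicate 3 apart from MV replicate 2. MV replicate 3 was also the only one of the 7 with a high signal for the X-inactivation transcript Xist, at 567, against 18.4 to 21.8 on the LPS arrays and 20.9 to 26.5 on the other MV arrays. A permutation over 4 and 3 arrays has 35 splits and cannot give a two-sided p below 0.0571, so only the fit across all genes was used as a test.

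Of the 13089 genes, 3432 differed between LPS and MV lungs (26.2%), 1645 of them higher in LPS (12.6%) and 1787 lower (13.7%). The higher side held most of the large differences. At least 2-fold differences were found for 331 genes (2.53%), of which 245 were higher (1.87%) and 86 lower (0.657%) in LPS lungs. For 4335 genes (33.1%) the LPS and MV arrays did not overlap, and 3078 (23.5%) both passed the test and did not overlap. The median difference over all genes was 0.0046 and the median SE 0.092.

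**Figure D1:**
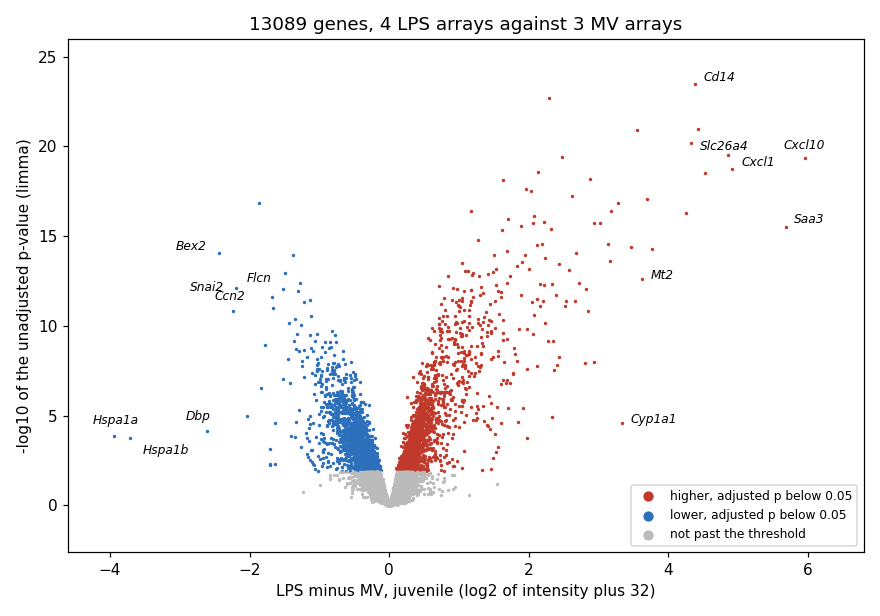
Each point is 1 of 13089 genes, with the LPS minus MV difference in juvenile lungs (log2 of intensity plus 32) on the horizontal axis and -log10 of the unadjusted limma p-value on the vertical axis. Red points are the 1645 genes that passed the threshold and were higher in LPS, blue points the 1787 that were lower, and the points beyond a difference of 2 are mostly on the higher side.

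The untreated juvenile lungs showed which of the compared groups had left the resting level. Among the 245 genes at least 2-fold higher in LPS lungs, 215 had all 4 LPS arrays above all 4 controls while the MV arrays did not all lie below the controls. For 2 genes only the MV arrays lay apart, all below the controls, for 22 both did, and for 6 neither did. Among the 86 genes at least 2-fold lower in LPS lungs, 32 had all LPS arrays below the controls while the MV arrays did not all lie above them. For 12 only the MV arrays lay apart, above the controls, for 21 both did and for 21 neither did. In 22 of the 215 higher genes and 3 of these 32 lower genes, the MV arrays also all lay outside the controls, on the same side as the LPS arrays. The higher genes were mostly ones that stood above the controls after LPS, whereas the lower genes were divided between those low after LPS and those high after ventilation. A group of 3 arrays lies outside a range more easily than a group of 4, and no test was made of these counts. The same counts were not taken over all genes.

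The gene with the highest difference was Cxcl10, which encodes an interferon-induced chemokine for activated T cells and NK cells. Its intensity was 4609, 2831, 5109 and 5319 on the LPS arrays and 24.9, 78.3 and 22.6 on the MV arrays. All 4 LPS values lay far above all 3 MV values, and the controls read 16.2 to 23.2, with MV replicate 3 among them, MV replicate 1 just above and MV replicate 2 clearly above. The difference was 5.96 ± 0.24 (adjusted p = 6.93e-17). Saa3, a serum amyloid A gene expressed in inflamed tissue, read 6511, 5748, 6866 and 6553 on LPS arrays and 89.8, 91.4 and 95.7 on MV arrays, a difference of 5.70 ± 0.33. The LPS+MV lungs, at 2393 to 4499.7, lay below the LPS arrays, and the control lungs, at 46.3 to 109, spanned the MV values.

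The promoters of the genes at the top of each side are shown because the known inputs to them differ: NF-kB and interferon factors for the induced genes and heat shock or circadian factors for the others. RefSeq's promoter table (build GRCm38.p6) matched 10528 of the 13089 genes by symbol. The 250 bases before the start of transcription are given 5′ to 3′ on the gene's strand, with matches to 7 motifs in capitals on either strand: the interferon-stimulated response element (TTTCNNTTTC), NF-kB, AP-1 (TGANTCA), the cyclic AMP response element (TGACGTCA), the E-box (CACGTG), the heat shock element (GAANNTTCNNGAA) and the serum response element. Adjoining capitals can belong to overlapping matches. The capitals are matches to NF-kB, the interferon-stimulated response element and AP-1 in Cxcl10, to the interferon-stimulated response element in Saa3 and Ifit1, and to NF-kB in Hspa1a, while Dbp held none of the 7.
Cxcl10, chr5:92348890-92349139, minus strand: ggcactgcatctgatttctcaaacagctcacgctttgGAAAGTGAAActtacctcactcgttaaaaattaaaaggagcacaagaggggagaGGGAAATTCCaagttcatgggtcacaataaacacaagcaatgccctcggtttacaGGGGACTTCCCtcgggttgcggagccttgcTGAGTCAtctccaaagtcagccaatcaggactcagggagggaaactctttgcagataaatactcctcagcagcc
Saa3, chr7:46715677-46715926, minus strand: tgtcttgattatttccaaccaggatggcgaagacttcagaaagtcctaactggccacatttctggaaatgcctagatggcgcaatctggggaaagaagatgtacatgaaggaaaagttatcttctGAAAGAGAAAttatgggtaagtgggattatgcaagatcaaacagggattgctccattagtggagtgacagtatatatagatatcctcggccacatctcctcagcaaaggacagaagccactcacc
Ifit1, chr19:34640639-34640888, plus strand: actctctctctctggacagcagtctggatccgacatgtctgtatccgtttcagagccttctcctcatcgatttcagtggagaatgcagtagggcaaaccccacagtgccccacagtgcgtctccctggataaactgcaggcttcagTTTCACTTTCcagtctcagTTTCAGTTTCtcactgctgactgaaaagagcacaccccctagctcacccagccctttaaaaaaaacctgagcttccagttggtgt
Hspa1a, chr17:34972157-34972406, minus strand: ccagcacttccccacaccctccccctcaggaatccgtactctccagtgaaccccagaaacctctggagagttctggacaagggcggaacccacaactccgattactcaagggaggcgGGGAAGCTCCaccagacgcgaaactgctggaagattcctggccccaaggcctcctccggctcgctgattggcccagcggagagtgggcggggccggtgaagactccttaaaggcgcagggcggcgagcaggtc
Dbp, chr7:45704997-45705246, plus strand: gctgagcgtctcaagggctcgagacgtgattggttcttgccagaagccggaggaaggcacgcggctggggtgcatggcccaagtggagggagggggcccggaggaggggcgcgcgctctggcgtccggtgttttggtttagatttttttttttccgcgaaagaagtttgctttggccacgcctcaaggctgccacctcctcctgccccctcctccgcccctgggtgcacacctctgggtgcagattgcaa
The window of Hspa1b matched that of Hspa1a at 247 of 250 bases and is not printed. Of all 32851 windows in the table, 2.98% held the interferon-stimulated response element, 7.25% the NF-kB motif, 6.75% AP-1, 1.55% the cyclic AMP response element, 6.02% the E-box, 0.466% the heat shock element and 1.47% the serum response element. For the 13472 windows of tested genes the shares were 2.57%, 8.94%, 4.93%, 2.3%, 7.96%, 0.386% and 1.22%, in the same order. Among the 246 windows of genes at least 2-fold higher in LPS lungs, 11% held the interferon-stimulated response element, 17.1% the NF-kB motif, 15% AP-1, 0.813% the cyclic AMP response element, 6.1% the E-box, 2.03% the serum response element and none the heat shock element. Among the 104 windows of genes at least 2-fold lower, 0.962% held the interferon-stimulated response element, 5.77% the NF-kB motif, 1.92% AP-1, 4.81% the cyclic AMP response element, 6.73% the E-box, 1.92% the serum response element and none the heat shock element. Windows were found for 194 of the 245 higher genes and 75 of the 86 lower genes, and some genes had several. These shares are descriptions of letters in a window, without a test.

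The chemokines that draw neutrophils through the receptor CXCR2 were among the most changed genes. Cxcl1 read 2044, 1823, 1869 and 1605 on LPS arrays and 40.2, 15.1 and 36.1 on MV arrays, with controls at 10.8 to 20.9. Cxcl5, made largely by alveolar epithelium in the mouse lung, read 1438, 773, 1536 and 1242 on LPS arrays and 9.11, 10.3 and 12.8 on MV arrays. On the MV arrays both genes stayed at 40.2 or below, and no LPS value came near them. The differences were 4.92 ± 0.21 for Cxcl1, 4.86 ± 0.19 for Cxcl5, 4.52 ± 0.20 for Cxcl2 and 4.43 ± 0.15 for Cxcl3, and the MV arrays of the last pair lay inside the control ranges of 6.79 to 13.5 and 6.44 to 8.13. Of 8 neutrophil-attracting chemokines and receptors tested, 5 were higher, none was lower and 3 did not pass, with a median of 2.47.

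**Figure D2:**
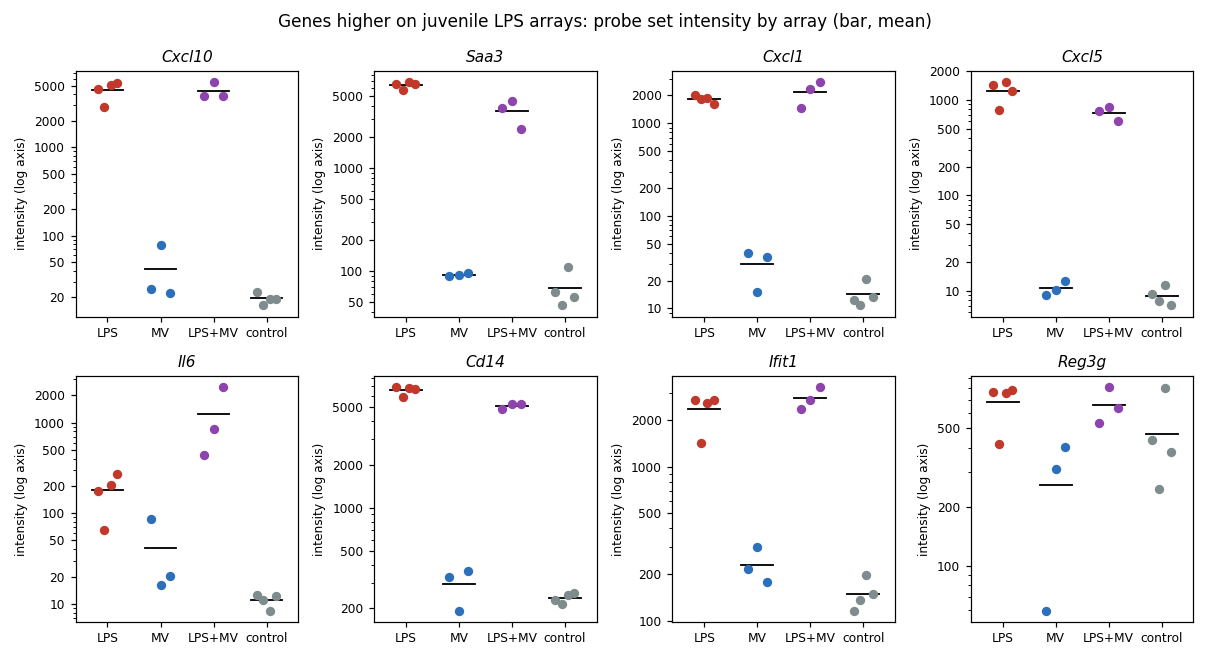
Probe set intensity on a log axis for 8 genes that were higher on LPS arrays, by array, in 4 juvenile groups (LPS, MV, LPS+MV, control). Points are arrays and bars group means. For Cxcl10, Saa3, Cxcl1, Cxcl5, Cd14 and Ifit1 most MV arrays sit near the controls while the LPS and LPS+MV arrays sit far above. MV replicate 2 of Cxcl10, at 78.3, lies clearly above the controls, and for Saa3 and Cd14 the LPS+MV arrays all lie below the LPS arrays.

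Chemokines for other leukocytes followed. Of 12 other CXC chemokines and receptors, 7 were higher and 5 did not pass, and of 19 CC chemokines and receptors 12 were higher, 1 was lower and 6 did not pass. Ccl2, the main chemokine for monocytes, read 997, 480.5, 1075 and 1117 on LPS arrays and 47.7, 25.6 and 31.1 on MV arrays, a difference of 3.77 ± 0.24. Ccl20, which draws dendritic cells and lymphocytes that carry CCR6, read 751, 539, 643 and 579 on LPS arrays against 24.3, 24.1 and 23.6 on MV arrays (3.55 ± 0.12). The MV arrays of Ccl20 spanned less than 1 intensity unit and lay inside the control range of 20.8 to 25.7. Ccl17, a ligand of CCR4, differed by 3.47 ± 0.22, Ccl3 by 3.14 ± 0.20 and Ccl12 by 2.21 ± 0.12. The interferon-induced CXCR3 ligand Cxcl11 differed by 0.94 ± 0.12. Its relative Cxcl9 read 289, 126, 317 and 365 on LPS arrays and 15.1, 169.8 and 9.55 on MV arrays. Here the groups overlapped, with MV replicate 2 above LPS replicate 2, and the difference of 1.98 ± 0.45 passed the test (adjusted p = 0.0016). Ccl6, a chemokine of resident myeloid cells, was the only CC member lower in LPS, by a small margin (-0.43 ± 0.15, adjusted p = 0.037), and it no longer passed without MV replicate 1 or 3 or without any 1 of the LPS arrays (adjusted p = 0.054 to 0.155).

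Of 29 inflammatory cytokines and receptors, 22 were higher in LPS lungs, none was lower and 7 did not pass, with a median of 0.97. Csf2, the growth factor GM-CSF on which alveolar macrophages depend, read 1080.4, 679, 836 and 678 on LPS arrays and 64.1, 54.8 and 44.4 on MV arrays, a difference of 3.28 ± 0.16. Il1b, the precursor of interleukin-1β, read 1686, 1439, 1840.5 and 1414 on LPS arrays and 158, 107 and 429 on MV arrays. The groups did not overlap, but all MV arrays were above the controls (41.6 to 65.2), and the difference was 2.81 ± 0.35. Il6 read 175, 66.0, 206 and 274 on LPS arrays and 86.3, 16.0 and 20.1 on MV arrays. Its groups overlapped, with MV replicate 1 above LPS replicate 2, and its difference of 1.56 ± 0.40 was among the less certain of the cytokines (adjusted p = 0.00423). In the LPS+MV lungs Il6 read 439.6 to 2462, above every LPS array. Tnf, encoding tumour necrosis factor, differed by 1.05 ± 0.13, the macrophage growth factor Csf1 by 2.32 ± 0.13 and the interleukin-1 receptor antagonist Il1rn by 1.95 ± 0.13.

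The receptor for LPS was itself changed. Cd14 read 6918, 5911, 6864 and 6692 on LPS arrays and 329.6, 193 and 363 on MV arrays, a difference of 4.38 ± 0.12 with the smallest relative error of the 15 highest genes. Tlr2, the receptor for bacterial lipoproteins, read 1049, 859, 977 and 1048 on LPS arrays and 151, 102 and 150.4 on MV arrays (2.62 ± 0.13). Tlr4 went the other way, at 84.3, 68.9, 84.2 and 72.7 on LPS arrays and 123, 93.6 and 147 on MV arrays (-0.47 ± 0.11, adjusted p = 0.00284). The LPS values of Tlr4 all lay inside the control range of 59.7 to 88.8, and all 3 MV values lay above it. A dimmer probe set of Tlr4 differed by -0.20 and did not pass. The adaptor Myd88 differed by 1.55 ± 0.12 and Irak3, an inhibitor of Toll-like receptor signalling in macrophages, by 1.31 ± 0.11. Of 19 genes of the receptor complex and its signalling, 10 were higher, 1 was lower and 8 did not pass, with a median of 0.28.

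Most genes of NF-kB feedback were higher in LPS lungs. Of 16 subunits and inhibitors, 13 were higher, none was lower and 3 did not pass, with a median of 1.79. Tnip1, which binds the ubiquitin-editing enzyme A20, read 1877, 1485, 1705 and 1648 on LPS arrays and 273, 289 and 263 on MV arrays, with all MV values within or close to the control range of 250.01 to 275. Its difference was 2.47 ± 0.099 (adjusted p = 6.93e-17). Tnfaip3, which encodes A20, read 1447, 1134, 1181 and 1196 on LPS arrays and 206, 216 and 299.8 on MV arrays (2.23 ± 0.15). The MV arrays of Tnfaip3 were all above the controls (113 to 156) yet far below the LPS arrays. The inhibitor genes Nfkbie and Nfkbia differed by 2.88 ± 0.13 and 0.94 ± 0.10, the subunits Relb and Rela by 2.12 ± 0.13 and 0.75 ± 0.11, and the TNF-induced Tnfaip2 by 3.18 ± 0.17.

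Interferon-stimulated genes were higher in LPS lungs almost throughout the list: 29 of 31 were higher, none was lower and 2 did not pass, with a median of 1.24. Ifit1, whose product binds viral RNA that lacks a proper cap, read 2701, 1434, 2609.5 and 2736 on LPS arrays and 216, 299 and 177 on MV arrays. LPS replicate 2 was the lowest of its group but still above every MV array, and the difference was 3.17 ± 0.22 (adjusted p = 6.95e-12). Usp18, which removes ISG15 from proteins and limits interferon receptor signalling, read 623, 446, 737 and 781 on LPS arrays and 87.0, 132 and 84.2 on MV arrays (2.34 ± 0.18). Cmpk2 differed by 2.53 ± 0.21, Oasl1 by 2.16 ± 0.17 and the transcription factor Irf7, which amplifies type I interferon, by 1.44 ± 0.14. For Usp18 and Irf7, MV replicates 1 and 3 lay below the control ranges of 100.5 to 147 and 58.3 to 84.1, and MV replicate 2 lay inside them. Of 11 genes of class I antigen processing, 7 were higher and 4 did not pass, led by the immunoproteasome subunit Psmb10 (1.25 ± 0.14). Only 4 were higher without MV replicate 1, without MV replicate 3 or with the compared groups only. The groups did not overlap for 3 of the 11, against 33.1% of all genes. Their summed intensity was 18535 to 21545 on LPS arrays and 14179, 23987 and 14929 on MV arrays, so that MV replicate 2 lay above every LPS array. None of 8 MHC class II genes passed in limma after adjustment (0 of them at an unadjusted p under 0.05), and 1 was higher without LPS replicate 2. Among SOCS inhibitors of cytokine receptors, Socs3 read 1397, 1134, 1108 and 1095 on LPS arrays and 520.1, 159 and 562 on MV arrays (1.61 ± 0.32). MV replicates 1 and 3 of Socs3 were well above the controls (113 to 182) while MV replicate 2 was among them. Socs1 was higher by 0.40 ± 0.09 and Socs7 lower by -0.49 ± 0.11, and the other 5 members did not pass. The other probe sets of Socs7, at -0.27 and 0.043, did not pass.

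All 15 acute phase and host defence genes tested, of 20 listed, were higher in LPS lungs, with a median of 1.87, and without MV replicate 1 the lectin gene Reg3g was lost from them. Lcn2, encoding the siderophore-binding protein lipocalin-2, read 8087, 7503, 6903 and 7032 on LPS arrays and 1072, 989 and 970.5 on MV arrays (2.83 ± 0.22). Hp, for the haemoglobin-binding haptoglobin, read 8310.1, 8299.8, 7777 and 8607 on LPS arrays against 3824, 3415 and 3654 on MV arrays. The MV arrays of Hp lay below all controls (4069 to 4793) and the LPS arrays above them, and the difference of 1.18 ± 0.062 had a small error (adjusted p = 2.48e-14). Saa1 differed by 3.70 ± 0.18, and the metalloreductase Steap4 by 4.26 ± 0.23. Slc26a4, the anion exchanger pendrin, read 1109, 749, 1172 and 1003 on LPS arrays and 16.6, 20.8 and 20.5 on MV arrays, with LPS+MV lungs between them at 230.1 to 269, and differed by 4.32 ± 0.16.

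Metal and redox genes divided. The metallothioneins, small proteins that bind zinc and copper, were higher: Mt2 read 4965, 4587, 4899 and 4937 on LPS arrays and 587, 219 and 368 on MV arrays (3.62 ± 0.27), and Mt1 differed by 2.35 ± 0.25. The zinc importer Slc39a14 differed by 1.52 ± 0.13. Sod2, the mitochondrial superoxide dismutase, read 3586, 3404, 3389.8 and 3318 on LPS arrays and 696, 716 and 614 on MV arrays, and its difference of 2.29 ± 0.069 had an adjusted p of 1.32e-19. Of 18 NRF2 and antioxidant genes 8 were higher, among them Txnrd1 (1.28 ± 0.095) and Gclc (1.31 ± 0.17), 9 did not pass, and the peroxisomal catalase gene Cat was lower (-0.66 ± 0.11). Of 11 oxidase and nitric oxide genes 6 were higher, with Gch1, the first enzyme of tetrahydrobiopterin synthesis, at 1.69 ± 0.18 and the arginase Arg2 at 1.73 ± 0.25, while the oxidase gene Nox4 was lower (-1.08 ± 0.17) and 4 did not pass. Ptges, which makes prostaglandin E2, differed by 1.60 ± 0.13. It was 1 of 3 higher members among 17 genes of the prostaglandin and leukotriene pathways, of which 2 were lower and 12 did not pass. The share that passed in these pathways was 29.4%, against 26.2% of all genes. Ch25h, which makes 25-hydroxycholesterol, read 729, 525, 802 and 761 on LPS arrays and 98.7, 34.3 and 85.4 on MV arrays (2.86 ± 0.26), and the cholesterol exporter Abca1 was lower (-0.49 ± 0.15) in overlapping groups, a call that ended without MV replicate 1 (adjusted p = 0.109), MV replicate 2 (0.127) or LPS replicate 3 (0.069). Cyp1a1, the cytochrome that the aryl hydrocarbon receptor induces, read 858, 1257, 761 and 722 on LPS arrays and 12.6, 10.9 and 351 on MV arrays. MV replicate 3 was far above the other MV arrays, and the controls ranged from 279 to 2516, so that the LPS arrays lay inside the control range. The difference was 3.33 ± 0.66.

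Markers of neutrophils gave a mixed picture. Of 16 tested, 5 were higher, 2 were lower and 9 did not pass, with a median of 0.76, and 3 were higher without MV replicate 1, MV replicate 2 or any 1 LPS array. The summed intensity of the list was 16266 to 17233 on LPS arrays and 4922 to 7387 on MV arrays, with controls at 2354 to 5976. A large part of that gap was Lcn2, which is in this list as well as among the acute phase genes. Alone it read 6903 to 8087 on LPS arrays and 970.5 to 1072 on MV arrays. In whole lung, more cells of a type and more RNA per cell cannot be told apart, and the same holds for fewer cells and less RNA. The calgranulins S100a8 and S100a9 read 3096, 3460.3, 4206 and 3780.5 and 3239.8, 2821, 3699 and 3389 on LPS arrays, against 2505, 1490.4 and 2137 and 2284, 1085 and 2064 on MV arrays. Neither gene's groups overlapped, yet neither passed the test (0.84 ± 0.56 with an adjusted p of 0.296, and 0.91 ± 0.58 with 0.269) in the fit over all groups, whose controls ranged from 339 to 2127 and from 314 to 1434. With only the compared groups in the fit, they passed with adjusted p of 0.0038 and 0.011, and 10 members of the list were higher. The higher members included Clec4e (2.12 ± 0.27), a receptor for mycobacterial glycolipid, and Fpr2 (1.46 ± 0.24), a formyl peptide receptor. The granule genes Camp and Ngp, made by immature neutrophils, were lower. Ngp read 73.6, 73.7, 62.0 and 51.7 on LPS arrays and 321, 243 and 252 on MV arrays, where the LPS arrays lay among the controls (39.9 to 95.0) and the MV arrays above them, and differed by -1.64 ± 0.54 (adjusted p = 0.0232). The call of Ngp ended without MV replicate 1 (adjusted p = 0.083) or LPS replicate 4 (0.052).

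Among other leukocyte lists, 29.4% of monocyte and macrophage markers, 5.56% of lymphocyte markers and 30.8% of adhesion molecules passed, against 26.2% of all genes. Of 17 monocyte and macrophage markers 2 were higher, among them the scavenger receptor Marco (1.32 ± 0.16), 3 were lower, among them Cd163 (-0.35 ± 0.075) and Siglecf (-0.59 ± 0.16), and 12 did not pass. Cd163 was dim, at most 24.7 on the 7 arrays. Of 18 lymphocyte markers none was higher, 1 was lower and 17 did not pass, but the count rested on single MV arrays: 4 were lower without MV replicate 1, 3 were lower without MV replicate 3, and 2 were higher and none lower without MV replicate 2. The lower one, the NK receptor Klrd1, read 34.8, 36.5, 49.0 and 40.8 on LPS arrays and 55.1, 134 and 33.6 on MV arrays, and its call ended without MV replicate 2 (adjusted p = 0.742). That array was also high for the cytotoxic protease Gzma, at 1397 against 61.1 and 53.0 on the other MV arrays and 57.1 to 123 on LPS arrays. Its summed lymphocyte markers were 3584, against 1276 and 1413 on the other MV arrays and 1594 to 1751 on LPS arrays. Whether this array's lymphocyte signal bears on other genes was not tested beyond leaving the array out. Among 13 adhesion molecules 4 were higher and 9 did not pass (3 higher and 2 lower without MV replicate 3), with Icam1 at 5817, 4491, 5107 and 5248 on LPS arrays and 1665, 1629 and 2157 on MV arrays (1.497 ± 0.099), Vcam1 at 1.34 ± 0.15 and Selp, the platelet and endothelial P-selectin, at 1.46 ± 0.18.

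Epithelial lists had members that were higher and members that were lower. The share that passed was 28.6% for airway secretory, 37.5% for alveolar type 2 and 33.3% for alveolar type 1 genes. It was 35.7% for ciliated cell genes and tubulins and 30.8% for tight junction genes, against 26.2% of all genes. Of 14 airway secretory genes 4 were higher and 10 did not pass, and 2 were higher without LPS replicate 3, without LPS replicate 4 or with the compared groups only. Reg3g, an antibacterial lectin, read 765, 419, 754 and 785 on LPS arrays and 59.4, 311 and 403 on MV arrays, and Bpifb1, a secreted lipid-binding protein of airway glands, read 769, 486, 715 and 793 on LPS arrays and 78.7, 304 and 379.7 on MV arrays. Both were lowest on MV replicate 1, and LPS arrays lay within or close to the control ranges of 247 to 806 and 232 to 731. Their differences were 1.54 ± 0.42 and 1.52 ± 0.33. Without MV replicate 1 none of the 14 passed, Reg3g among them (adjusted p = 0.133), while Bpifb1, which is not in that list, had a difference of 0.93 with an adjusted p of 0.027. The goblet cell gene Clca1 ranged too widely to pass, at 478, 86.6, 423 and 428 on LPS arrays and 20.2, 200.1 and 93.0 on MV arrays. Among 16 surfactant and alveolar type 2 genes 3 were higher (1 without MV replicate 2) and 3 lower, with the collectin Sftpd at 0.74 ± 0.081 and the lipid transporter Abca3 and the transcription factor Cebpa at -0.61 ± 0.13 and -0.71 ± 0.12. Elf5, an epithelial transcription factor, was low after LPS: it read 27.1, 30.0, 29.9 and 25.3 on LPS arrays and 196, 213 and 157 on MV arrays, with controls at 177 to 193 and LPS+MV lungs at 16.7 to 28.0. The MV arrays and controls were close together, the LPS arrays stood well below both, and the difference was -1.87 ± 0.094 (adjusted p = 9.25e-15). The alveolar type 1 gene Pdpn was higher (0.55 ± 0.11), as 1 of 12 such markers, with 3 lower and 8 not passing. Of 14 ciliated cell genes and tubulins 4 were higher, among them Tubb4b (1.18 ± 0.087), Tubb6 (1.17 ± 0.14) and Tuba1a (0.62 ± 0.13), 1 was lower and 9 did not pass. Tubb4b read 1287, 1278, 1354 and 1186 on LPS arrays and 539, 535 and 557 on MV arrays, and it was the ventilated lungs that lay apart from controls at 1117 to 1239.6. Tight junction genes had 4 higher and 9 that did not pass of 13, led by Cldn7 (0.80 ± 0.078) and Tjp3 (1.14 ± 0.11), and water channels Aqp3 and Aqp4 were higher by 1.02 ± 0.10 and 1.08 ± 0.16.

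**Figure D3:**
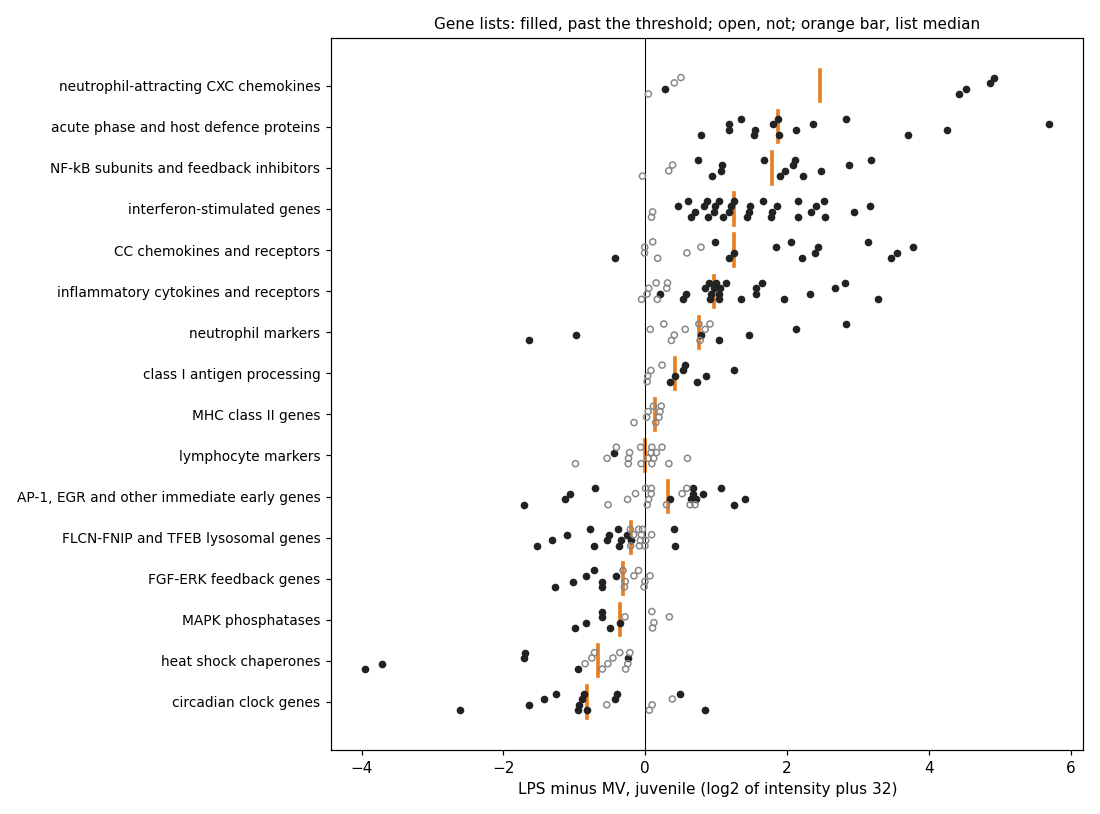
LPS minus MV differences in juvenile lungs (log2 of intensity plus 32) of the tested members of 16 gene lists. Filled points passed the threshold, open points did not, and orange bars are list medians, which run from 2.47 for the neutrophil-attracting chemokines at the top to -0.82 for the circadian clock genes at the bottom.

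Of the 15 lowest genes, the heat shock genes Hspa1a and Hspa1b had the largest differences and the largest errors. Hspa1a, an inducible HSP70 chaperone, read 72.4, 49.4, 51.6 and 39.8 on LPS arrays and 1318, 207 and 6849 on MV arrays. Hspa1b, its near-identical copy, read 309, 203, 332 and 232 on LPS arrays and 3698, 1009 and 14979 on MV arrays, and probe sets for these copies may share signal. The groups did not overlap for either gene, but the MV arrays themselves spread over more than a 10-fold range, from replicate 2 at the bottom to replicate 3 at the top. MV replicate 2 lay inside the control ranges of 54.4 to 234 for Hspa1a and 134 to 1178 for Hspa1b. The differences were -3.95 ± 0.89 and -3.71 ± 0.86 (adjusted p = 0.00138 and 0.00172). Among 16 heat shock chaperones and co-chaperones 6 were lower in LPS, none was higher and 10 did not pass, with a median of -0.66. Dnajb1, the partner of HSP70, differed by -1.70 ± 0.45, Hsph1 by -1.71 ± 0.57, Bag3 by -0.95 ± 0.28 and the lens and muscle chaperone Cryab by -0.25 ± 0.084. The summed intensity of the list was 16792 to 22026 on LPS arrays, and 25835, 20176 and 83061 on the MV arrays. Without MV replicate 3, 2 members were lower and the median was -0.17, and Dnajb1 (adjusted p = 0.097), Hsph1 (0.348), Bag3 (0.239) and Cryab (0.245) no longer passed. A second probe set of Cryab differed by 0.025 and did not pass. Hsph1 also failed without LPS replicate 2 (0.064) or LPS replicate 4 (0.057). Without MV replicate 1 the list had 9 lower members, without MV replicate 2 it had 10 and without LPS replicate 2 it had 4. With high Xist signal (above 100, yes or no) as a term in the fit, 4 were lower.

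Early genes that respond to stretch and growth factors were divided in sign. Ccn2, the matricellular protein CTGF and a target of YAP, read 624, 903, 668 and 595 on LPS arrays and 3292, 2694 and 4288 on MV arrays. The LPS arrays all lay below the controls, at 1033 to 2237, and the MV arrays all above them, and the difference was -2.24 ± 0.20 (adjusted p = 1.62e-09). Of 22 YAP and stretch genes 5 were lower, among them Lats2 (-0.61 ± 0.13) and Srf (-0.50 ± 0.14, with an adjusted p of 0.060 without MV replicate 1, and a dimmer probe set at 0.086 that did not pass), 2 were higher, among them the growth factor Hbegf (0.80 ± 0.15), and 15 did not pass. Snai2, a repressor of epithelial genes, read 155, 205, 178 and 179.9 on LPS arrays and 896, 923 and 977 on MV arrays, with controls between the groups at 394 to 638 (-2.19 ± 0.17). Among 26 immediate early genes 9 were higher, 4 were lower and 13 did not pass. Junb (1.41 ± 0.28), Ier3 (1.07 ± 0.21) and Gadd45g (1.25 ± 0.22) were higher. The 4 lower ones were Jun (-0.71 ± 0.22) and the orphan nuclear receptors Nr4a1 (-1.71 ± 0.56), Nr4a2 (-1.13 ± 0.34) and Nr4a3 (-1.06 ± 0.38). Nr4a1 read 146, 133, 99.1 and 252 on LPS arrays and 469, 204 and 1766 on MV arrays, so that MV replicate 3 was far above the rest and the groups overlapped. Without that replicate none of the 4 passed, with adjusted p of 0.253 for Nr4a1, 0.119 for Nr4a2, 0.117 for Nr4a3 and 0.120 for Jun. The call of Nr4a1 also ended without LPS replicate 3 (0.068), that of Jun without LPS replicate 3 (0.084), and that of Nr4a3 without any 1 of the arrays but MV replicate 2. Without MV replicate 2 the list had 5 higher members in place of 9, and without LPS replicate 3 it had 1 lower member in place of 4. Dimmer probe sets of Jun (0.12), Nr4a2 (-0.38 to 0.12) and Nr4a3 (0.042) did not pass, and with probe sets averaged per gene 1 member was lower. Fos (0.59 ± 0.45) and Egr1 (0.63 ± 0.45) did not pass, and the MV arrays of Egr1, at 451, 229 and 993, all stood above the controls (119 to 156).

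Some inhibitors and relays of MAP kinase signalling were lower in LPS lungs. Of 11 MAP kinase phosphatases 6 were lower, none was higher and 5 did not pass, with a median of -0.36, and without MV replicate 3 the list had 4 lower and 1 higher. Dusp6, which switches off ERK, read 695, 695, 664 and 702 on LPS arrays and 1215, 810.1 and 1239 on MV arrays, with controls at 738 to 928. The LPS arrays lay below every control and MV replicates 1 and 3 above every control, and the difference was -0.61 ± 0.14. Dusp4 differed by -0.84 ± 0.14 and Dusp1, whose groups overlapped, by -0.99 ± 0.30, which did not pass without MV replicate 1 (adjusted p = 0.058), MV replicate 3 (0.086) or LPS replicate 3 (0.053). Of 15 genes of FGF signalling and ERK feedback 7 were lower and 8 did not pass. The ETS factor Etv5 read 132, 153, 121 and 130.5 on LPS arrays and 358, 426 and 327 on MV arrays (-1.27 ± 0.098), with controls at 383 to 499, so all LPS arrays lay far below the control range, MV replicate 2 inside it and the other MV arrays just below it. The growth factor Fgf7 was lower by -1.02 ± 0.14, the receptor Fgfr3 by -0.72 ± 0.091 and the inhibitor Spry2 by -0.62 ± 0.13.

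The folliculin group, which controls lysosomal and metabolic transcription factors through mTORC1, was set apart mainly by the ventilated lungs. Flcn read 74.5, 101, 83.6 and 98.5 on LPS arrays and 299, 307 and 339.8 on MV arrays, and controls lay between the groups at 122 to 146. Its partners Fnip1 (209, 193, 182 and 225 on LPS arrays, 510.5, 488 and 672 on MV arrays) and Fnip2 (213, 207, 135 and 192 on LPS arrays, 397, 388 and 519 on MV arrays) had the same arrangement of LPS and MV, with controls at 205 to 264 and 197 to 242. For each partner 2 of 4 LPS arrays were below the control minimum and the others inside the range, and all MV arrays were above the control maximum. The differences were -1.52 ± 0.12, -1.32 ± 0.14 and -1.10 ± 0.15. Of 25 genes of this group and of the TFEB lysosomal programme 12 were lower, 2 were higher and 11 did not pass. Without MV replicate 1 the list had 8 lower members. The lower ones included the proton pump subunit Atp6v1a (-0.78 ± 0.10) and the mitochondrial coactivator Ppargc1a (-0.72 ± 0.17), and the higher ones were the transcription factor Tfe3 (0.41 ± 0.1) and the protease Ctsb (0.41 ± 0.057).

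**Figure D4:**
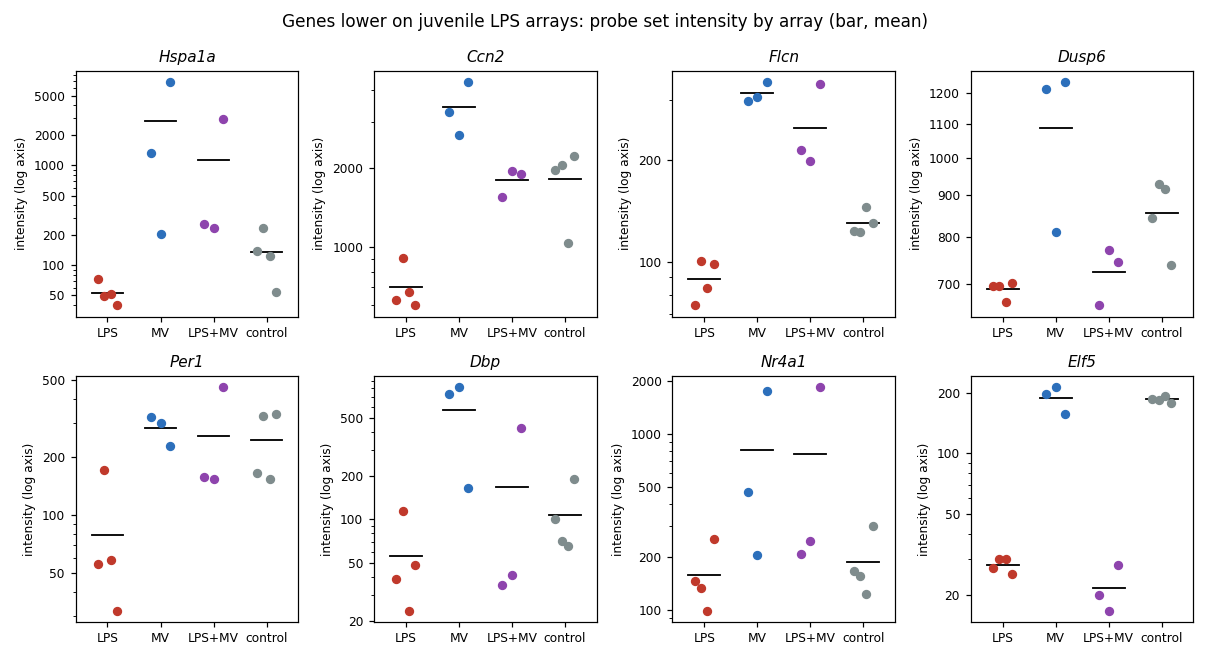
Probe set intensity on a log axis for 8 genes that were lower on LPS arrays, by array, in 4 juvenile groups (LPS, MV, LPS+MV, control). Points are arrays and bars group means: MV arrays of Ccn2 and Flcn sit above the controls, MV arrays of Elf5 sit with the controls, and Hspa1a and Nr4a1 have 1 very high MV array.

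Most circadian genes tested were lower in LPS lungs. Of 17 tested 11 were lower in LPS, 2 were higher and 4 did not pass, with a median of -0.82. Dbp, a clock output factor, read 38.9, 114, 23.5 and 48.5 on LPS arrays and 729, 817 and 164 on MV arrays. MV replicate 3 was the lowest MV array and the only one inside the control range of 65.2 to 190.5, and LPS replicate 2 was the highest LPS array. The difference was -2.61 ± 0.56 (adjusted p = 7.89e-04). Per1, a repressor of the clock, read 55.8, 171, 58.3 and 32.01 on LPS arrays and 324, 299 and 227 on MV arrays (-1.63 ± 0.32), again with LPS replicate 2 highest. Per2 (-0.94 ± 0.26), Per3 (-0.86 ± 0.17), the heme receptors Nr1d1 (-0.89 ± 0.31) and Nr1d2 (-1.26 ± 0.32), Rora (-1.43 ± 0.14), Ciart (-0.42 ± 0.094) and the Dbp relatives Hlf (-0.82 ± 0.20) and Tef (-0.93 ± 0.25) were lower as well. The 2 higher genes were Npas2 (0.83 ± 0.21), a partner of BMAL1, and Bhlhe40 (0.50 ± 0.15), a repressor that also responds to cytokines. Single arrays decided some of the smaller calls: Nr1d1 no longer passed without MV replicate 1 or 2 or LPS replicate 1 or 3 (adjusted p = 0.062 to 0.143), Per2 without MV replicate 1 (0.057) and Bhlhe40 without MV replicate 2 (0.173). The hour at which lungs were taken is not given in the sources used here, and its part in these differences was not tested.

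Glucocorticoid targets ran both ways. Of 20 genes in that list, metallothioneins included, 7 were higher, 8 were lower and 5 did not pass. The higher ones included Mt2, Lcn2, Slc39a14 and Nfkbia, which are described above with metal, acute phase and NF-kB genes. Tsc22d3, the steroid-induced protein GILZ, read 896, 1533, 738 and 731 on LPS arrays and 2379, 2424 and 1589.8 on MV arrays (-1.14 ± 0.24). LPS replicate 2 was again the highest LPS array. Zbtb16 was lower by -1.12 ± 0.30, Sgk1 by -1.03 ± 0.14, and the pyruvate dehydrogenase kinase Pdk4 by -1.41 ± 0.32. Of 11 Kruppel-like factors 5 were lower, among them Klf15 (-1.83 ± 0.27), Klf9 (-0.82 ± 0.16), Klf4 (-0.94 ± 0.23) and Klf6 (-0.64 ± 0.13), and 1 was higher, Klf10 (0.94 ± 0.16). Klf15, a steroid and fasting target, read 70.9, 134, 87.3 and 76.1 on LPS arrays and 407, 409 and 390.2 on MV arrays. Its MV arrays were nearly equal and inside the control range of 139.9 to 625, and all LPS arrays were below it. Arrdc3 (-1.77 ± 0.20) and the insulin receptor substrate Irs1 (-1.44 ± 0.17) were also lower.

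The rest of the 15 lowest genes had no common role. Bex2, a small adaptor protein, read 124, 136, 80.7 and 84.1 on LPS arrays and 785, 756 and 603 on MV arrays, with controls at 549 to 753 (-2.45 ± 0.16). Malat1, a nuclear noncoding RNA, read 356, 258, 173 and 367 on LPS arrays and 1108, 1285 and 1319.6 on MV arrays (-2.03 ± 0.38), and of its 6 other probe sets 4 also passed, from -1.88 to -0.20, while 2 dim ones at -0.21 and -0.22 did not. Fam13a differed by -1.67 ± 0.14 and the phosphodiesterase Pde7b by -1.67 ± 0.15. In the remaining lists the share of members that passed ran from 9.09% (cardiac muscle) to 57.1% (haem and red cell), against 26.2% of all genes. Of 19 extracellular matrix genes 6 were lower, among them the proteoglycan Bgn (-0.72 ± 0.11). Only 1 was left without MV replicate 1 or 2, 3 without LPS replicate 3 or 4, and 4 without LPS replicate 1. Of 20 TGF-beta, activin and BMP-ID genes 5 were lower, among them Tgfb2 (-0.69 ± 0.12) and Smad6 (-0.95 ± 0.21), and 2 were higher, among them Tgfb1 (0.53 ± 0.13). Among 16 matrix proteases and inhibitors 5 were higher and 3 lower (1 lower without MV replicate 1, MV replicate 2, LPS replicate 3 or LPS replicate 4), with the inhibitor Timp1 at 2.94 ± 0.16, Mmp13 at 1.31 ± 0.10, Adamts4 at 1.195 ± 0.23 and Adamts1 at -1.29 ± 0.23. Of 22 cell cycle genes 6 were lower, among them Rrm2 (-1.17 ± 0.33) and Mcm2 (-0.49 ± 0.13). None was lower without MV replicate 2, 3 were without MV replicate 1 or LPS replicate 2, and 4 were without LPS replicate 1. Of 24 endothelial genes 2 were higher, among them Adm (1.69 ± 0.24), 2 were lower, among them Sox17 (-0.76 ± 0.18), and 20 did not pass. Of 14 haem and red cell genes 5 were higher and 3 lower, with the first enzyme of haem synthesis, Alas1, at -0.71 ± 0.15, and the higher ones numbered 1 when MV replicate 2 was omitted, 2 when MV replicate 1 was and 3 when LPS replicate 1 was. Coagulation and fibrinolysis genes had 3 higher and 2 lower of 14, and cytokine mRNA decay factors 2 higher and 1 lower of 10. Genes of the unfolded protein and integrated stress response had 2 higher and 4 lower of 21, and 5 higher and 3 lower without MV replicate 3. Cholesterol genes had 5 higher and 4 lower of 17, 3 higher and 1 lower when MV replicate 1 or 2 was omitted, and 5 higher and 1 lower without LPS replicate 3. Of 11 cardiac muscle genes, a check for tissue carried over with the lung, only Myh7 passed (-0.58 ± 0.13). Their summed intensity was 19411 on LPS replicate 4, against 6615 to 11050 on the other LPS arrays, 6306 to 10511 on MV arrays and 7666 to 9977 in controls. The list median was 0.39, and 0.13 without LPS replicate 4.

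The same contrast in adults, which shares no array with the juvenile one, gave 3202 genes (24.5%), 2077 higher in LPS (15.9%) and 1125 lower (8.60%), a split that became 1758 higher and 1757 lower after quantile normalization. Of the genes called, 1684 were called at both ages, which was 49.1% of the juvenile and 52.6% of the adult calls, and 1645 of these had the same sign. Across the 13089 genes the juvenile and adult differences had a Pearson r of 0.74 and a Spearman rho of 0.56, as a description over genes that are not independent of each other. The difference between the ages itself passed the test for 563 genes (4.30%), in 224 of which (1.71%) the LPS minus MV value was higher in juveniles and in 339 (2.59%) lower. After quantile normalization that split was 428 and 291. Of the 3432 juvenile genes 362 were among these 563, and in 322 the difference was larger in size in juveniles. Genes picked for passing in juveniles tend to have large juvenile differences, so this count does not compare the ages.

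Several top genes had differences of the same sign at both ages. The adult differences were 5.28 ± 0.22 for Cxcl10, 4.98 ± 0.18 for Cxcl5, 4.62 ± 0.18 for Cxcl2 and -1.77 ± 0.087 for Elf5, and none of these 4 passed the test of the age difference. The acute phase list was another matter, with 11 of its 15 genes past that test. Saa1 differed by 3.70 ± 0.18 in juveniles and 2.15 ± 0.17 in adults (age difference 1.55 ± 0.25, adjusted p = 5.64e-04). Lcn2 differed by 2.83 in juveniles and 1.51 in adults. Hp differed by 1.18 in juveniles and 0.37 in adults, with an age difference of 0.80 ± 0.084 (adjusted p = 5.00e-06). Hp read 8438 to 8741 on adult LPS arrays and 7777 to 8607 on juvenile ones. On MV arrays it read 6453 to 6839 in adults and 3415 to 3824 in juveniles. Cd14 followed, with 4.38 in juveniles and 3.25 in adults (1.13 ± 0.17, adjusted p = 1.74e-04).

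The largest age differences in the positive direction were in Clca1, Bpifb1, Reg3g, Itih4 and Il33. Il33, an epithelial alarmin that drives type 2 immunity, read 2671, 2457, 2523 and 2086 on juvenile LPS arrays and 305, 227 and 611 on juvenile MV arrays, a difference of 2.68 ± 0.18, whereas the adult difference was 0.56 ± 0.16. The age difference was 2.12 ± 0.24 (adjusted p = 1.15e-05). Adult arrays of Il33 read 1703 to 1885 after LPS and 1046 to 1504 after MV. The adult MV arrays all lay above their controls (453 to 564), and the juvenile MV arrays lay below or inside theirs (526 to 724). Itih4, a plasma protein of the acute phase, differed by 1.18 ± 0.20 in juveniles and -0.97 ± 0.19 in adults. Its adult arrays read 373 to 461 after LPS and 554 to 1165 after MV, with adult controls at 280 to 335. Bpifb1, Reg3g and Clca1, all of airway secretory cells, differed by 1.52, 1.54 and 1.55 in juveniles and -0.93, -0.74 and -3.24 in adults, where in adults Bpifb1 and Clca1 passed and Reg3g did not (adjusted p = 0.175), and in juveniles Clca1 did not. The largest in the negative direction were Ngp, Trem1, Ccn2, Il1r2 and Sgk1. Ccn2 differed by -2.24 in juveniles and -0.49 in adults, where it did not pass, with an age difference of -1.75 ± 0.27 (adjusted p = 4.33e-04). Sgk1, a kinase that regulates sodium channels, differed by -1.03 in juveniles and 0.53 in adults, with opposite signs that each passed. Trem1, a receptor that amplifies neutrophil activation, differed by 0.37 in juveniles, where it did not pass, and 2.18 in adults, and the decoy receptor Il1r2 by 0.93 in juveniles, a call that ended without MV replicate 2 (adjusted p = 0.175) or LPS replicate 2 (0.061), and 2.58 in adults. Ngp differed by -1.64 in juveniles and 0.90 in adults, where it did not pass.

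**Figure D5:**
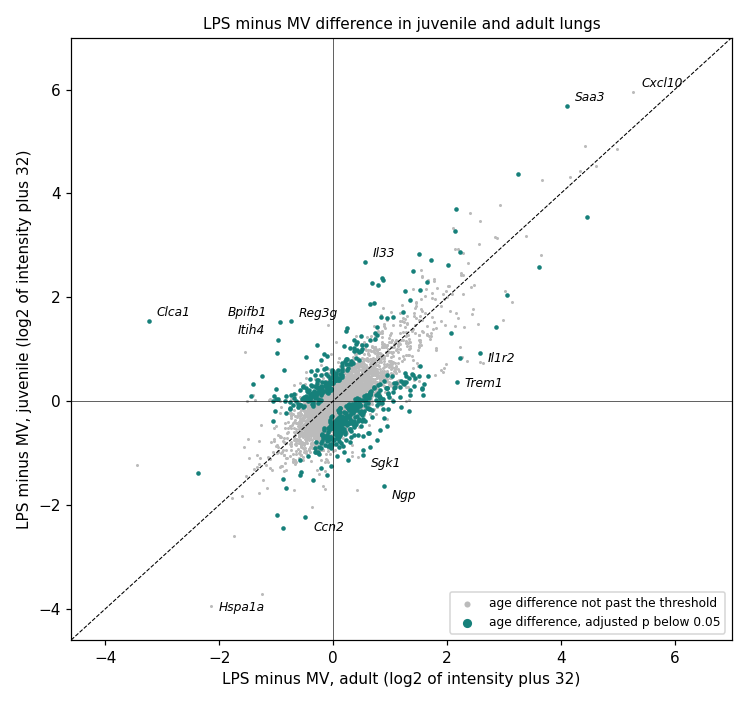
LPS minus MV difference (log2 of intensity plus 32) in juvenile lungs on the vertical axis and in adult lungs on the horizontal axis, for 13089 genes. Teal points are the 563 genes whose difference between the ages passed the threshold, the dashed line marks equal differences, and Il33, Clca1, Bpifb1, Reg3g and Itih4 lie above it while Ccn2, Ngp, Trem1, Il1r2 and Sgk1 lie below it.

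All 4 adult MV arrays were high for Xist and none of the 4 adult LPS arrays was, so that within those 8 arrays the Xist level and the treatment cannot be told apart, whereas 1 of 3 juvenile MV arrays and none of 4 juvenile LPS arrays was high. With high Xist signal (above 100, yes or no) as a term in the fit, 3405 juvenile genes passed, against 1967 adult genes and 288 genes for the difference between the ages.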

How the data were processed

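Whole-lung RNA from 30 mice was measured on Affymetrix Mouse 430 2.0 arrays. The deposited table held linear intensity values per probe set, already normalized between arrays by the authors, by a method not given in the sources used here beyond MAS5, the only tool in the submitters' processing notes. Array medians were 21.6 to 22.8. Of 45037 probe sets, 34945 had 1 gene symbol, 932 several and 9160 none in the platform table. From these, log2(intensity + 32) was taken, 24825 probe sets that exceeded the median of the array on 3 or more arrays were kept, and each gene was represented by its brightest probe set, giving 13089 genes. The number of arrays limits the precision.

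Limma 3.58.1 in R 4.3.3 fitted 8 groups over all 30 arrays with an intensity trend in eBayes, and p-values were adjusted by Benjamini-Hochberg. On simulated data laid out as the 30 arrays, with 13089 genes, 98% of genes changed by 1 on the log2 scale and 81% of those changed by 0.5 were recovered, and 13 of 192 calls were false. The simulated noise was normal, independent between genes and equal in spread across groups, and 100 genes were changed by each amount. These rates need not hold for the real arrays. Each array was 1 animal, per the labels, and of 45037 probe sets 0 to 16 held identical values in any pair of compared replicates, so none was counted as a repeat. As alternatives, the fit was repeated after quantile normalization, with 1 as pseudocount, without the filter, with probe sets averaged per gene, without the trend, with array weights, with Xist as a term, with a replicate block, on the compared groups only and without each array in turn. Genes named are the 15 highest and 15 lowest past the threshold with groups that did not overlap, the 5 at each end of the age difference, up to 4 per list by p-value and further list members. The lists and named genes were chosen with earlier results of these data known, so their counts are no independent evidence. Of 136 other probe sets of the named genes, 25 did not pass where the one used did, 8 of these with the opposite sign, and none passed with the opposite sign. Promoter sequences are from RefSeq (GRCm38.p6).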

Additional observations from a re-analysis of the deposited data

Results flagged for a closer look

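Of the 169 genes named, 11 had 1 LPS array far from the other 3 of its group, by Dixon's criterion on the gap over the group's range, and chance alone gives this in about 1 of 20 groups. LPS replicate 2 stood apart in 6 of them. It was low for Ifit1 (1434, against 2610 to 2736 on the other LPS arrays), Reg3g (419, against 754 to 785) and Clca1 (86.6, against 423 to 478), and high for Itih4 (696, against 500.3 to 519), Fgf7 (129.8, against 112 to 113) and Hlf (55.0, against 40.4 to 42.0). LPS replicate 1 was high for Relb (382), Socs3 (1397) and Tgfb1 (293), LPS replicate 3 was low for Klf10 (265) and LPS replicate 4 low for Smad6 (590.2). No cause was tested.

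The LPS minus MV difference itself differed between the ages, by the interaction in the limma fit, for 43 of the named genes, and values here are juvenile minus adult on the log2 scale. It was higher in juveniles for Clca1 (4.79), Bpifb1 (2.45), Reg3g (2.28), Itih4 (2.15), Il33 (2.12), Saa3 (1.58), Saa1 (1.55), Usp18 (1.46), Lcn2 (1.32), Cd14 (1.13), Csf2 (1.13), Hp (0.80), Psmb10 (0.76), Aqp3 (0.73), Irf7 (0.66), Ptges (0.65), Nfkbie (0.65), Sod2 (0.65), Tlr2 (0.60), Il1rn (0.60), Sftpd (0.57), Mmp13 (0.57), Cldn7 (0.55) and Tubb4b (0.53). It was lower in juveniles for Ngp (-2.54), Trem1 (-1.81), Ccn2 (-1.75), Il1r2 (-1.65), Sgk1 (-1.57), Bex2 (-1.56), Igfbp2 (-1.53), Dusp6 (-1.23), Snai2 (-1.21), Camp (-1.17), Adamts1 (-1.07), Tgfb2 (-1.0), Ccl20 (-0.92), Fam13a (-0.85), Abca1 (-0.85), Rora (-0.85), Cebpa (-0.77), Klf6 (-0.67) and Myh7 (-0.66). All 4 adult MV arrays and no adult LPS array were high for Xist, and with a term for it 288 genes in place of 563 passed this test.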

How the results depend on the processing

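The number of juvenile genes past the threshold was 3432, and it stayed within 1.5 times under every alternative run, from 3208 with the compared groups only to 5028 with array weights, and from 2689 to 3341 with 1 array left out. The adult count of 3202 was 1967 with a term for Xist and 2722 to 2924 with 1 array left out, and its share of higher genes was 64.9% as reported, 50% after quantile normalization (3515 genes) and 55.9% with array weights. These adult alternatives were chosen after seeing the data. The age difference was the least settled: its 563 genes became 1390 with array weights, 288 with the Xist term and 236 to 674 with 1 array left out, the lowest without juvenile MV replicate 1, 309 without juvenile LPS replicate 3, 365 without juvenile LPS replicate 4, 325 without adult MV replicate 4 and 338 without adult LPS replicate 1. Its share of genes higher in juveniles was 39.8% as reported and 59.5% after quantile normalization, with 719 genes. The causes were not tested. Of the named genes only Gzma, which was not called, changed sign, with -0.99 as fitted with all arrays and -1.69 to 0.35 with 1 array left out, the highest without MV replicate 2. Over all genes named and alternatives, calls were lost 71 times and gained 5 times. List counts that moved by 2 or more members and by 1.5 times with 1 array left out stand beside the lists, and those of 1 to 3 members often moved by 1. Same-numbered LPS and MV arrays share only a number: their deviations from the group means correlated at 0.0059, 0.045 and 0.12, and not every array correlated best with its own number. A fit with the replicate number as a block called 3508 juvenile genes, 3303 adult genes and 666 genes for the age difference. Dim probe sets, 4 arrays against 3, and the unstated normalization limit what can be seen.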
